A study of Rattus norvegicus with 4 samples.

Results

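The genes described here are the transcription factor NRF2 (Nfe2l2), its repressor Keap1, and enzymes of heme breakdown and oxidant defence outside the glutathione system: the heme oxygenases Hmox1 and Hmox2, the biliverdin reductases Blvra and Blvrb, Nqo1, Srxn1, Txnrd1 and Akr1b8. They were taken by symbol from the annotation of the array, which held all 10 of them on 14 probe sets, out of 14217 named genes on 20826 probe sets that carry 1 gene. RNA came from hippocampal neural progenitor cells of Fisher 344 rats, expanded with basic fibroblast growth factor and then kept for 4 days in medium with N2 supplement, per the labels' protocols. One group had the solvent DMSO as negative control, another KHS101, the small molecule under study, at 1.7 uM, another KHS101 at 5 uM, and the positive control had 1 uM retinoic acid together with forskolin. The labels name no concentration for forskolin, and the design text of the series names retinoic acid alone as the positive control; the sample labels are followed here, and the conflict is not settled. Each group was 1 Affymetrix array of a cell culture, so no difference below has a replicate error or a p-value, no spread tells neighbouring levels apart, and precision is limited by the number of arrays.

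NRF2 is a transcription factor that is bound by KEAP1 in the cytoplasm and handed to a CUL3 ubiquitin ligase for destruction. Oxidants and electrophiles that modify cysteines of KEAP1 let NRF2 escape, enter the nucleus, pair with a small MAF protein and act on antioxidant response elements near its target genes. Heme oxygenase splits heme into iron, carbon monoxide and biliverdin, and biliverdin reductase turns biliverdin into bilirubin; HMOX1 is the inducible form and HMOX2 the constitutive form that is abundant in brain. NQO1 reduces quinones, sulfiredoxin (SRXN1) restores over-oxidised peroxiredoxins, thioredoxin reductase 1 (TXNRD1) keeps thioredoxin reduced, and AKR1B8 is an aldo-keto reductase that reduces aldehydes.

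Promoter sequence is given for 4 genes that were higher with KHS101 and, for contrast, for Hmox2, which was not. RefSeq (GRCr8) promoters were found for 9 of the 10 genes, all but Hmox1. Each line runs from 140 bases before the transcript start to 10 bases after it, on the gene's strand. Capitals mark matches to TGANNNNGC, a loose form of the core of the antioxidant response element, on either strand.

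Srxn1 (chr3:161064672-161064821, plus strand): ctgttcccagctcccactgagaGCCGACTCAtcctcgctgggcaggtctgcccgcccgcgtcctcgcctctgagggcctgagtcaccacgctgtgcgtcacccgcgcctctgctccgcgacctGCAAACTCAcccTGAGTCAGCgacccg

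Nqo1 (chr19:52220258-52220407, minus strand): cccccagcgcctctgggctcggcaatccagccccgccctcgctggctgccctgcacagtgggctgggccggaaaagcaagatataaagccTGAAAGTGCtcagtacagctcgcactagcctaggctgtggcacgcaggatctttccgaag

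Akr1b8 (chr4:63964281-63964430, plus strand): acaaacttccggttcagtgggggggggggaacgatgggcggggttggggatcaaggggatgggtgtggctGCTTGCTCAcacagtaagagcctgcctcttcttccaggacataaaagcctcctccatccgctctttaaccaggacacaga

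Nfe2l2 (chr3:81028990-81029139, minus strand): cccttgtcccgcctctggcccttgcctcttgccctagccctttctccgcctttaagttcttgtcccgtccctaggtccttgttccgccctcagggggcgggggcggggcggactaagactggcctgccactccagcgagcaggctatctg

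Hmox2 (chr10:11337603-11337752, minus strand): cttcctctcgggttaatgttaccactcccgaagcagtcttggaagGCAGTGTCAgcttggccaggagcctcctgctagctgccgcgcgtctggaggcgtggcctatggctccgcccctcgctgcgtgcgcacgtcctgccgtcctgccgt

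The loose form TGANNNNGC was found in 40.5% of 33469 rat promoters of 300 bases (250 before and 50 after the start), so a match is common. All 9 genes held it in at least 1 promoter, in 9 of 11 promoters. That was so for 4 of 4 genes that were higher with KHS101 at 5 uM and for 5 of 5 that were not. By promoter, as the shares over all rat promoters are counted, it was 4 of 4 and 5 of 7. Hmox2 and Txnrd1 each had 2 promoters and a match in 1 of them. By gene, the loose form thus did not separate the higher genes from the others within these 300 bases. Sites farther from the start were not searched, and Hmox1 had no promoter to search. The stricter core TGACNNNGC, which lies within the loose form, was in 12.1% of promoters. It was in 1 of the 4 genes (Nfe2l2, 39 bases into the transcript and so outside the printed line). It was also in 3 of the 5 others (Hmox2, Blvra and Txnrd1), or 3 of their 7 promoters. Srxn1 held 3 matches to the loose form, which begin 118, 17 and 5 bases before the start. The last of them, TGAGTCAGC, is also the 1 match among these genes to TGANTCAGC, a form of the element that 1.11% of promoters hold. The motifs were chosen after these sequences had been read, and a match is a description of letters, not of binding.

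A floor of log2 = 5 was set under the values, because lower ones carry little specific signal; 8389 to 8471 of the named genes were above it, depending on the array. Lower values were raised to the floor, and where 1 of 2 compared arrays was there, the fold is a bound ("at least"). Calls of higher or lower needed 2-fold or more (1 on the log2 scale). Of 5 progenitor markers measured, Nes (10.67 to 11.97) and Sox2 (13.57 to 14.01) were called for no treatment against DMSO. Fabp7 was 4.33-fold lower at 5 uM and 2.31-fold at 1.7 uM, Hes1 was 2.54-fold and 2.89-fold higher, and Vim was 2.16-fold lower with retinoic acid and forskolin. Of 5 oligodendrocyte markers measured, 4 were called lower at 5 uM and 1 at 1.7 uM, and 1 (Mbp) was higher with retinoic acid and forskolin. Of all measured genes, 6.16% were higher and 8.1% lower at 5 uM, and 4.36% and 4.27% at 1.7 uM. With retinoic acid and forskolin 4.34% were higher and 3.15% lower. A count of 0 or 1 among so few markers is near these shares. Of 3 measured neuron markers 0 were called with KHS101 and 1 with retinoic acid and forskolin (Tubb3, 2.20-fold higher), while Dcx, Rbfox3 and Snap25 were under the floor. S100b, the 1 astrocyte marker of 5 above the floor, was 2.08-fold higher with retinoic acid and forskolin. All 8 microglia and macrophage markers, all 6 fibroblast markers and the 3 erythroid markers on the array stayed under the floor on every array, at most 2.84. Of 4 endothelial markers, Kdr alone passed it, at 6.54 with retinoic acid and forskolin. The beta-actin control probe sets, whose 3' minus 5' difference grows as RNA is degraded or copied short, differed by 1.26 in DMSO, 1.37 with retinoic acid and forskolin, 1.40 for KHS101 at 1.7 uM and 1.54 for 5 uM. For the hexokinase controls the values in the same order were 0.69, 0.66, 0.80 and 0.96. For the GAPDH controls they were -0.16, -0.12, -0.14 and -0.11, almost level. The part of these differences in the results was not tested.

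The first comparison, of KHS101 at 5 uM against DMSO, asked which of these genes differed at the higher concentration. Hmox1 was 43.5-fold higher, Srxn1 38.6-fold, Nqo1 at least 25.4-fold, Akr1b8 at least 13.6-fold and Nfe2l2 itself 5.24-fold. The bounds cannot be ranked in this order: with no floor the log2 differences were 6.06 for Akr1b8 and 5.44 for Hmox1. Hmox2, both biliverdin reductases, Txnrd1 and Keap1 stayed within 2-fold of DMSO. Thus 5 of 10 genes were called higher and 0 lower, where 6.16% of all 8543 measured genes were higher and 8.1% lower. The median log2 difference was 1.47 over the 10 genes and 0.0011 over all measured genes. The 10 genes were chosen with earlier results of these data known, so their excess over all genes is a description and not a test. The same holds for the counts that follow. In a bulk culture, fewer or more cells of a type and less or more RNA per cell cannot be told apart.

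**Figure D1:**
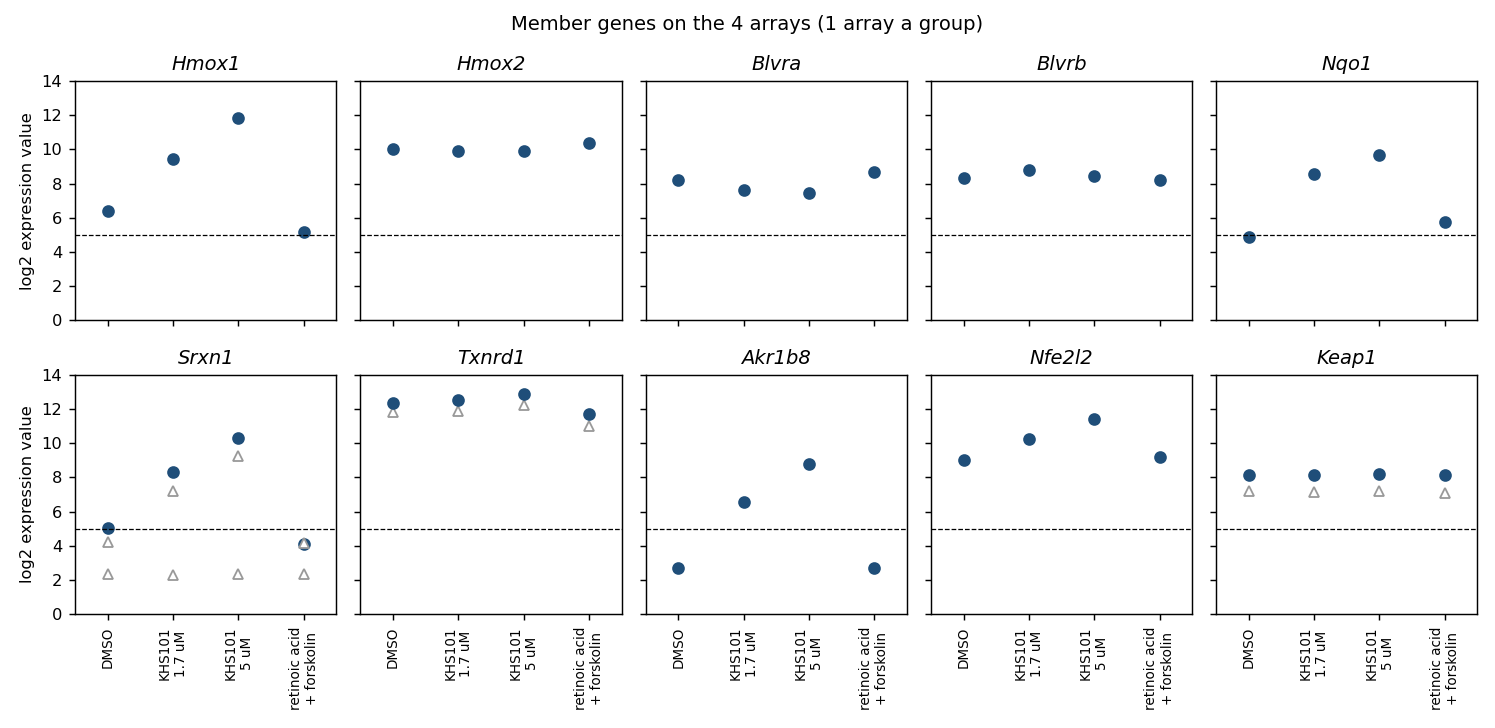
Log2 expression value (vertical axis) of each of the 10 genes on the DMSO, KHS101 1.7 uM, KHS101 5 uM and retinoic acid with forskolin arrays (horizontal axis), 1 array a group and so no error bars. Filled circles are the probe set that represents the gene, open triangles its other probe sets, and the dashed line is the floor at 5; Hmox1, Nqo1, Srxn1, Akr1b8 and Nfe2l2 are highest at 5 uM, while Keap1 stays between 8.14 and 8.21.

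The heme-degrading enzymes differed among themselves. Hmox1 was at log2 6.39 in DMSO, 9.46 with KHS101 at 1.7 uM, 11.83 at 5 uM and 5.16 in the positive control (retinoic acid with forskolin). Both KHS101 arrays were thus above DMSO, and the retinoic acid array was below it and just above the floor. Hmox2 was at 10.05 in DMSO, 9.88 at 1.7 uM, 9.91 at 5 uM and 10.35 in the positive control. Its 4 values lay close together; the probe set of the pseudogene Hmox2-ps1 was under the floor on all arrays, at 2.54 to 2.61.

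Biliverdin reductase did not follow Hmox1. Blvra, which makes the main adult form of bilirubin, was at 8.21 in DMSO, 7.64 at 1.7 uM, 7.45 at 5 uM and 8.66 in the positive control. It was the 1 gene of the 10 that was lower in order of KHS101 concentration, 1.48-fold and 1.69-fold under DMSO, both short of 2-fold. Blvrb, which also reduces flavins, was at 8.35 in DMSO, 8.78 at 1.7 uM, 8.46 at 5 uM and 8.19 in the positive control, with no order by concentration.

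Among the redox enzymes, Nqo1 was at 4.88 in DMSO, 8.57 at 1.7 uM, 9.67 at 5 uM and 5.77 in the positive control. Its DMSO value was under the floor, so its differences from DMSO are bounds. Srxn1 was at 5.05 in DMSO, 8.32 at 1.7 uM, 10.32 at 5 uM and 4.11 in the positive control. A second probe set of Srxn1 gave 4.19, 7.22, 9.25 and 4.18 in the same order, at least 19.0-fold higher at 5 uM and at least 4.68-fold at 1.7 uM. The third gave 2.29 to 2.36 on all arrays and so measured no specific signal. Akr1b8 was at 2.70 both in DMSO and with retinoic acid and forskolin, and at 6.54 and 8.76 with KHS101 at 1.7 and 5 uM. It was thus above the floor with KHS101 and on no other array. Akr1b8 has close relatives, and signal shared with them was not tested: Akr1b1 stayed at 12.85 to 13.22, and Akr1b10 was under the floor on all arrays.

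Txnrd1 was the redox enzyme with the smallest difference between KHS101 and DMSO. It was at 12.33 in DMSO, 12.54 at 1.7 uM, 12.89 at 5 uM and 11.73 in the positive control, and its other probe set at 11.84, 11.86, 12.21 and 11.03. The difference at 5 uM was 1.47-fold by the first and 1.29-fold by the second.

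The regulators split in the same way. Nfe2l2 was at 9.03 in DMSO, 10.25 at 1.7 uM, 11.42 at 5 uM and 9.18 in the positive control, which puts both KHS101 arrays more than 2-fold above the other two. Keap1 was at 8.15 in DMSO, 8.15 at 1.7 uM, 8.21 at 5 uM and 8.14 in the positive control, and its other probe set lay between 7.10 and 7.21. These are RNA levels; NRF2 is known to be controlled mainly as a protein, which the arrays do not measure.

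**Figure D2:**
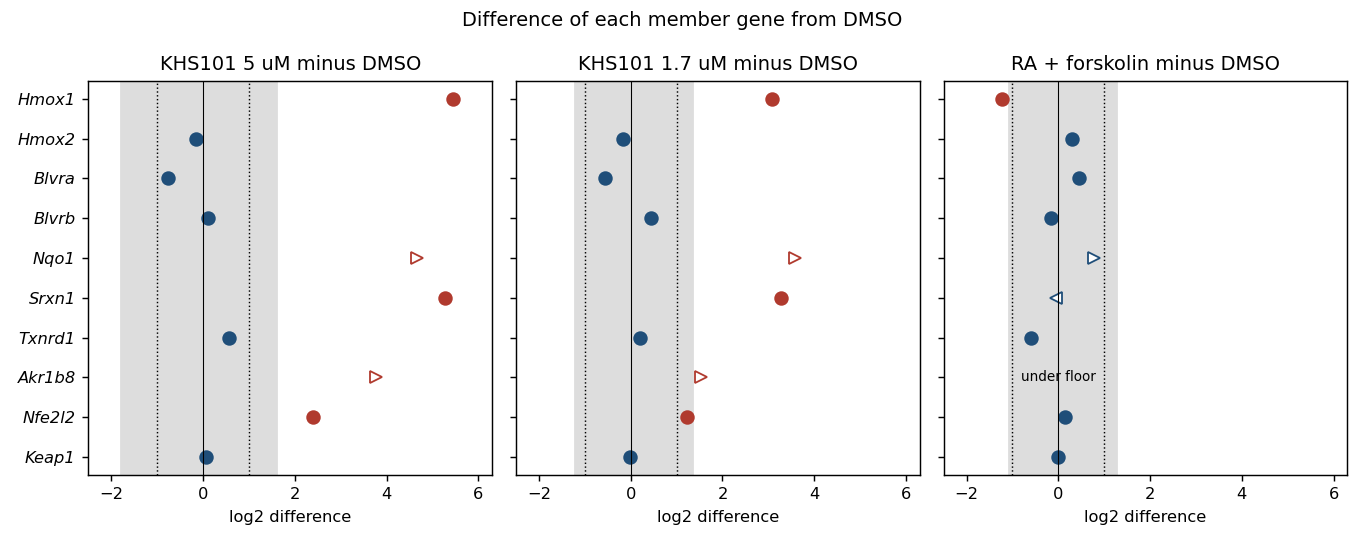
Log2 difference from DMSO (horizontal axis) for each of the 10 genes (rows) with KHS101 at 5 uM, KHS101 at 1.7 uM, and retinoic acid (RA) with forskolin. Red marks a difference of at least 2-fold (dotted lines at -1 and 1), and open triangles are bounds that point away from the floor. Grey is the central 95% of all measured genes, -1.78 to 1.61 at 5 uM and -1.22 to 1.36 at 1.7 uM. At 5 uM 5 genes lie to the right of the grey, while at 1.7 uM Nfe2l2, at 1.22, lies inside it. With retinoic acid and forskolin Hmox1 lies to the left of the grey.

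At 1.7 uM the same 5 genes were called higher than DMSO. Srxn1 was 9.66-fold higher, Hmox1 8.40-fold and Nfe2l2 2.32-fold, and the bounds were at least 11.9-fold for Nqo1 and at least 2.90-fold for Akr1b8. Bounds have no order: with no floor the log2 differences were 3.83 for Akr1b8 and 3.68 for Nqo1. The other 5 were within 2-fold, Blvrb at 1.36-fold higher and Txnrd1 at 1.16-fold. Over all 8533 measured genes 4.36% were higher and 4.27% lower, with a median of -0.0096 against 0.83 for the 10. Nfe2l2, at a log2 difference of 1.22, lay inside the central 95% of all measured genes, -1.22 to 1.36. Both concentrations were set against the same DMSO array, so the calls at the 2 concentrations are not independent of each other. With a floor of log2 = 6 the bound for Akr1b8 at 1.7 uM was 0.54 on the log2 scale, and as a mean over its 3 probe sets Srxn1 was at 0.94, both under 2-fold.

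The KHS101 arrays were then compared with each other, a comparison that does not use DMSO. It does share the 5 uM array with the first comparison, so it is not an independent check of those calls. All 5 genes passed 2-fold with the higher value at 5 uM: Hmox1 by 5.18-fold, Akr1b8 4.68-fold, Srxn1 4.00-fold, Nfe2l2 2.26-fold and Nqo1 2.14-fold. Over all 8500 measured genes 0.812% were 2-fold higher and 1.73% lower between these arrays. The second probe set of Srxn1 gave 4.06-fold. Of the 10 genes 5 were higher, 0 lower, and the median log2 difference was 0.72 against -0.0068 over all measured genes. Txnrd1 differed by 1.27-fold on each of its probe sets, while Hmox2, Keap1, Blvra and Blvrb lay between -0.33 and 0.06 on the log2 scale.

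Most genes that were higher with KHS101 had a smaller step between the concentrations. Of the 314 genes called higher than DMSO at both concentrations, 28 (8.92%) were at least 2-fold higher at 5 uM than at 1.7 uM, and the median step was 0.24 on the log2 scale. The 314 were picked on the same KHS101 arrays that give the step. All 5 of the NRF2 and heme genes were among the 28. Hmox1, Akr1b8 and Srxn1 had the 3 largest steps of the 314, and Nfe2l2 and Nqo1 were numbers 14 and 17. At a 3-fold threshold Hmox1, Akr1b8 and Srxn1 still passed, and 3 genes passed it at 1.7 uM against DMSO (Nqo1, Srxn1 and Hmox1). Over all measured genes, 12 of 8500 were 3-fold higher at 5 uM than at 1.7 uM. Against DMSO, 146 of 8533 were 3-fold higher at 1.7 uM.

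**Figure D3:**
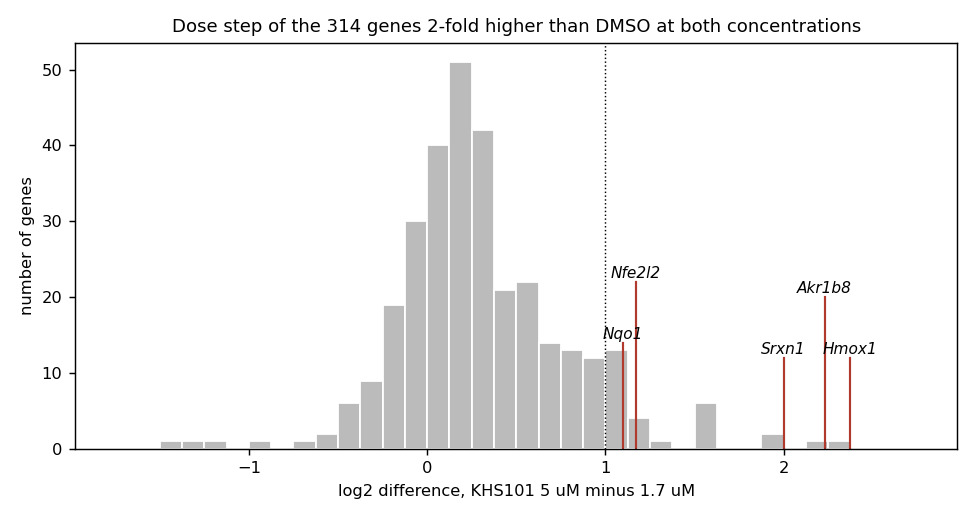
Histogram of the log2 difference between KHS101 at 5 uM and at 1.7 uM (horizontal axis) for the 314 genes that were at least 2-fold higher than DMSO at both concentrations, with the number of genes on the vertical axis. Red lines mark the 5 NRF2 and heme genes and have no meaning in height, and the dotted line is 2-fold; all 5 lie beyond it, between 1.10 and 2.37, where the median of the 314 is 0.24.

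With retinoic acid and forskolin none of the measured genes was 2-fold above DMSO. Of the 9 measured, 0 were higher and 1 was lower than DMSO, where 4.34% of 8535 measured genes were higher and 3.15% lower; the medians were -0.01 and -0.0264. Hmox1 was 2.34-fold lower, with 5.16 close to the floor, so that with a floor of log2 = 6 the log2 difference was -0.39 and no gene was called. Nqo1 was at least 1.71-fold higher, Txnrd1 was 1.52-fold lower on its main probe set, and Blvra was 1.37-fold higher. Nfe2l2 was within 1.10-fold of DMSO and Keap1 within 1.01-fold. Akr1b8 was under the floor on both arrays, and Srxn1, above it by little in DMSO, was under it with retinoic acid and forskolin.

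Set directly against the positive control, KHS101 at 5 uM had 6 of the 10 genes higher and 1 lower, with 8.94% of 8606 measured genes higher and 10.2% lower (769 and 880 genes; 585 and 1144 when arrays were centred on reference genes). Hmox1 was 102-fold higher, a log2 difference of 6.67, but its value of 5.16 in the positive control was close to the floor. With a floor of log2 = 6 the log2 difference was 5.83. Srxn1 was at least 39.9-fold higher, Nqo1 14.9-fold, Akr1b8 at least 13.6-fold and Nfe2l2 4.74-fold. Txnrd1 joined them at 2.23-fold (2.26-fold on its other probe set), since KHS101 and retinoic acid lay on opposite sides of DMSO; centred on reference genes its log2 difference was 0.98, just under 2-fold. Blvra was 2.31-fold lower with KHS101, and Hmox2, Blvrb and Keap1 were within 2-fold.

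The rest of the pathway was followed through 9 lists of NRF2 partners, targets and heme and iron genes, 90 genes in all, 81 of them on the array. At 5 uM, 8 of 61 measured genes were higher than DMSO and 2 lower, a share of 13.1% and 3.28% beside 6.16% and 8.1% of all measured genes, with a median log2 difference of 0.06. At 1.7 uM the counts were 5 and 1 of 60, or 8.33% and 1.67% beside 4.36% and 4.27%. With retinoic acid and forskolin they were 4 and 1 of 62, or 6.45% and 1.61% beside 4.34% and 3.15%, which is near the share over all genes. Between the KHS101 arrays 0 of 60 passed 2-fold in either direction, where 0.812% of all measured genes were higher and 1.73% lower. The counts per list that follow stand against the same shares over all genes, and a count of 0 or 1 among so few genes is near them.

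Among NRF2 partners 3 of 8 measured genes were higher at 5 uM. Mafg, a small MAF protein that pairs with NRF2 on DNA, was at 8.38 in DMSO, 9.16 at 1.7 uM, 9.83 at 5 uM and 7.64 in the positive control, and so 2.74-fold higher at 5 uM. Nfe2l1, a relative of NRF2 that controls proteasome genes, was 2.91-fold higher at 5 uM and 2.18-fold at 1.7 uM; its other 2 probe sets, at 1.90-fold and 3.27-fold, went the same way at 5 uM. Sqstm1, the autophagy receptor p62 that can draw KEAP1 away from NRF2, was at 11.58 in DMSO, 12.63 at 1.7 uM, 13.00 at 5 uM and 12.64 in the positive control. It was thus higher with all 3 treatments, 2.68-fold, 2.07-fold and 2.07-fold, but its other measured probe set gave 2.07-fold, 1.43-fold and 1.32-fold. The parts of the KEAP1 ligase, Cul3 and Rbx1, lay between -0.17 and 0.22 of DMSO on the log2 scale with every treatment. At 5 uM their other measured probe sets gave -0.32 for Cul3, opposite in sign to the 0.22 of its main one, and -0.46 for Rbx1. Mafk and Bach1, a repressor that competes with NRF2, were under the floor on all arrays.

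Of 8 measured glutathione genes 4 were higher at 5 uM and 3 at 1.7 uM. Slc7a11, which imports cystine, was at 7.40 in DMSO and 11.88 and 12.28 with KHS101 at 1.7 and 5 uM. Mgst1, a microsomal glutathione transferase, was under the floor in DMSO at 4.75 and at 8.03 and 8.88 with KHS101 and 6.87 with retinoic acid and forskolin, at least 14.7-fold, 8.17-fold and 3.65-fold higher for 5 uM, 1.7 uM and the positive control. The exporter Abcc4 was 4.73-fold higher at 5 uM and 3.10-fold at 1.7 uM. The subunits of the enzyme that starts glutathione synthesis parted: the catalytic Gclc was 2.11-fold higher at 5 uM (2.47-fold on its other probe set), and the modifier Gclm lay at 12.37 against 12.54 in DMSO. Gsta4 was above the floor with retinoic acid and forskolin alone, at 6.48.

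In the thioredoxin and peroxiredoxin list 0 of 9 measured genes were higher with KHS101. Prdx1 was not among them, because no probe set carried it alone. Txnip, which binds and inhibits thioredoxin, was at 7.81 in DMSO and 8.78 with retinoic acid and forskolin, and under the floor with KHS101 at 3.70 and 3.66, at least 7.02-fold lower at each concentration. Thioredoxin itself (Txn1) stayed at 14.93 to 15.05. No gene of NADPH supply passed 2-fold among 5 measured; Me1, the cytosolic malic enzyme, came nearest at 1.87-fold higher at 5 uM. Of the 7 measured superoxide and peroxide enzymes 0 passed it for any treatment against DMSO. Of 7 other detoxifying genes 0 were higher at 5 uM, and Ugdh was 2.48-fold lower. Cbr3, a carbonyl reductase, was lower with all 3 treatments at log2 differences of -0.99, -0.95 and -1.15 for 5 uM, 1.7 uM and the positive control, the last past 2-fold. Akr7a3, an aflatoxin aldehyde reductase, was 2.56-fold higher with retinoic acid and forskolin.

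Heme synthesis was represented by 6 measured genes, of which 1 was higher at 5 uM and 0 at 1.7 uM. It was Alas1, the rate-limiting enzyme outside red blood cells, at 9.42 in DMSO, 10.02 at 1.7 uM, 10.77 at 5 uM and 9.72 in the positive control, 2.54-fold higher at 5 uM. Fech, which inserts the iron, lay at 8.28 to 8.51. Por, which passes electrons to heme oxygenase, was at 11.06 in DMSO and 10.66 at 5 uM. Of 8 measured iron genes 0 passed 2-fold for any treatment against DMSO. The ferritin genes Fth1 and Ftl1 were not among them, because no probe set carried either alone. The iron exporter gene Slc40a1 was under the floor on all arrays. The transferrin receptor gene Tfrc differed by -0.25 at 5 uM, -0.90 at 1.7 uM and -0.99 in the positive control, and its other probe set by -0.24, -1.43 and -1.30.

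**Figure D4:**
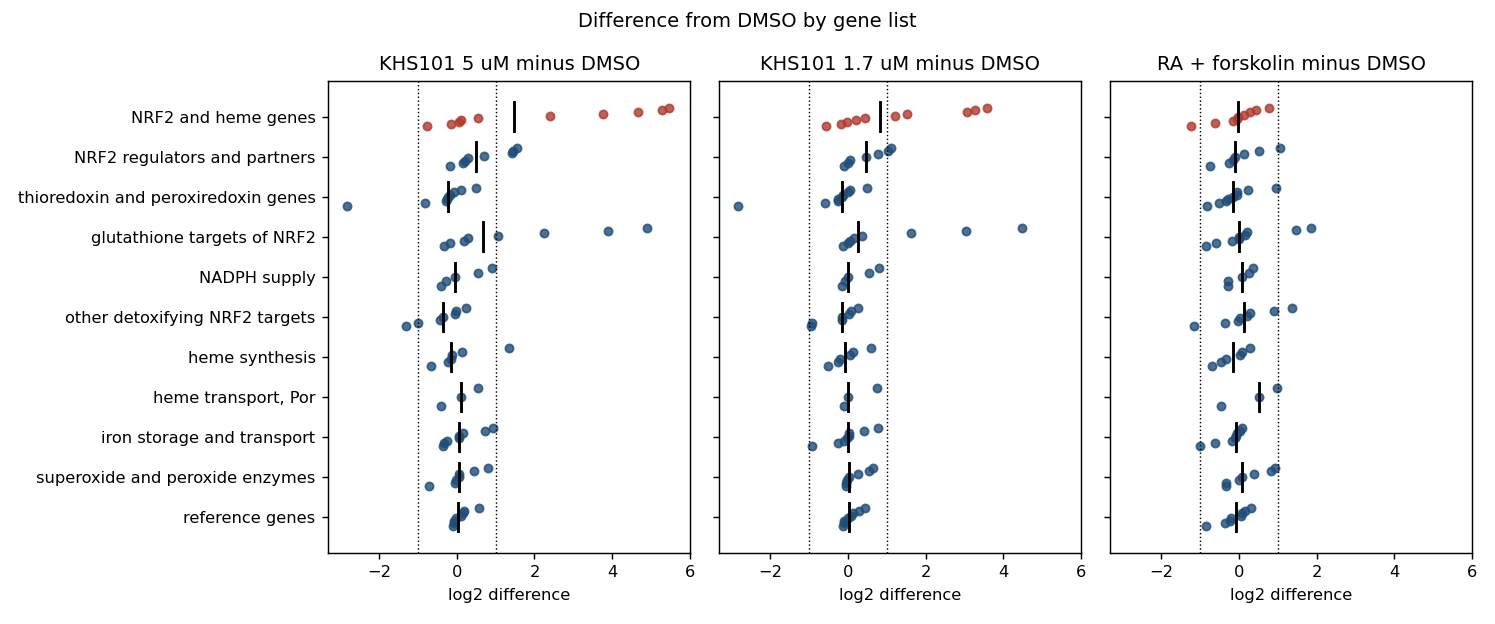
Log2 difference from DMSO (horizontal axis) of every measured gene of the 10 NRF2 and heme genes (red), the pathway lists and the reference genes (blue), 1 point a gene, with the list median as a black bar and dotted lines at 2-fold. The medians at 5 uM are 1.47 for the NRF2 and heme genes, 0.69 for the glutathione targets and 0.49 for the NRF2 partners, and the reference genes lie at 0.04.

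The genes whose differences from DMSO over the 3 treated arrays came closest to those of Hmox1, Srxn1 and Nqo1 were found by Euclidean distance on the log2 scale among 8645 other genes, with bounds taken at their value. For Hmox1 they were Srxn1 (distance 1.21), the glutathione-degrading Chac1 (1.31), Gadd45b (1.35), the transcription factor Klf4 (1.36) and the hyaluronan receptor Cd44 (1.41). For Srxn1 they were Klf4 (0.33), Gadd45b (0.35), the stress-induced transcription factor Atf3 (0.76), Nupr1 (0.84) and Dmkn (0.96), and for Nqo1 they were Dmkn (0.71), Atf3 (0.83), Gadd45b (0.85), Klf4 (0.91) and Fam13c (0.95). The floor sets much of this: with no floor, an alternative chosen after seeing the data, 3 of the 5 stayed for Hmox1 (Srxn1, Chac1 and Cd44), 1 for Srxn1 (Nupr1) and 1 for Nqo1 (Atf3). Srxn1 was the nearest gene to Hmox1 either way, at a distance of 1.21 with the floor and 0.40 without. Akr1b8 was 2.59 from Hmox1 with the floor and 1.57 without, and Nfe2l2 was 3.83 from it both ways. All these differences share the DMSO array, and 4 arrays cannot tell likeness from chance.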

How the data were processed

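Gene expression was measured on Affymetrix rat arrays, 1 for each of 4 groups. The deposited log2 values, 31099 probe sets per array, were made by the authors with GCRMA and R 2.6.2, per the submitters' processing notes; the role of each, a GCRMA version and a genome build are not given in the sources used here. The log2 scale was read from the values (array medians 3.67 to 3.76, highest value 16.1). Sorted columns differed by at most 0.19 at equal ranks, so the arrays had been brought to almost 1 distribution and a shift of all genes together cannot be seen.

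A gene took its probe set with the highest mean; other probe sets share the RNA and array and cover probe noise only. Values were floored at log2 = 5, genes above it on at least 1 of the compared arrays were measured, and calls needed a 2-fold difference. With 1 array a group no test was run. The code that makes the calls was checked on simulated arrays with known differences, which tests the code and not the data. Python 3.11.15, pandas 2.3.3 and numpy 2.4.6 were used. Members and gene lists were chosen with earlier results of these data known. The named genes were the 10 members, pathway genes called against DMSO, up to 3 uncalled genes a list with the highest mean, and the 5 nearest profiles. Fech, Tfrc, Me1, Bach1, Mafk, Akr1b10, Slc11a2, Slc40a1 and the chromosomal neighbours were named after their values were seen. Sequences are from RefSeq (GRCr8).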

Additional observations from a re-analysis of the deposited data

How the results depend on the processing

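Of 300 differences of the 10 genes under other floors (4, 6 or none), probe set means, centring on 8 reference genes or quantile normalization, 296 kept their side of 2-fold and 4 fell under it. No called difference changed sign, but 5 uncalled ones did when arrays were centred on reference genes: Keap1 in 3 comparisons (from 0.06 to -0.06 for KHS101 5 uM against DMSO, from 0.07 to -0.11 against retinoic acid with forskolin, and from -0.01 to 0.05 for the latter against DMSO), Hmox2 between the KHS101 arrays (0.02 to -0.02) and Blvrb at 5 uM against DMSO (from 0.11 to just under 0). The number of genes called moved by over 1.5 times as follows. At 3-fold it was 3 in place of 5 for KHS101 1.7 uM against DMSO, 3 in place of 5 for KHS101 5 uM against 1.7 uM, and 0 in place of 1 for retinoic acid with forskolin against DMSO. For the last it was also 0 with a floor of 6 and 3 at 1.5-fold. Of all measured genes, 6.74% and 23.5% were called at these 2 settings, so 3 of 9 at 1.5-fold is near the share over all genes. At 3-fold the shares over all genes were 2.51%, 0.341% and 1.97%, in the order given above. Centring moved the median of all genes by up to -0.177 (KHS101 5 uM against retinoic acid with forskolin). No paired analysis was possible because each group has 1 array. Low signal limits Akr1b8, Nqo1 and Srxn1, whose controls lie near or under the floor.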

Other observations

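Chromosomal neighbours of the 10 genes were looked up in the RefSeq gene order, and 11 of them were measured: 0 were higher and 3 lower at 5 uM against DMSO, where 6.16% and 8.1% of all measured genes were. Hmox1 lies between Tom1, an endosomal sorting gene, and Mcm5, a subunit of the replicative helicase. Tom1 was at 9.37 in DMSO, 9.99 with KHS101 at 1.7 uM, 10.30 at 5 uM and 9.57 in the positive control, retinoic acid with forskolin. Mcm5 was at 11.32, 9.87, 8.05 and 10.52 in the same order, a log2 difference of -3.27 at 5 uM beside 5.44 for Hmox1. Beside Hmox2 lie Cdip1 and Nmral1, which differed by 0.63 and -1.32 at 5 uM, and next to Blvra the condensin gene Ncaph differed by -1.75. Next to Nqo1, Nfat5, a transcription factor of the osmotic response, differed from DMSO by 0.85 at 5 uM and 1.19 in the positive control, and Nob1 by 0.54 and -0.61. Next to Nfe2l2, Hnrnpa3 and Agps differed by -0.08 and 0.29 at 5 uM, and the remaining measured neighbours, Akr1b1 beside Akr1b8 and Sertad3 beside Blvrb, by -0.01 and -0.37. The 2 probe sets of the iron transporter gene Slc11a2 went opposite ways, by 0.72 and -0.90 at 5 uM, and neither passed 2-fold.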
